A study of Mus musculus with 5 samples.

Results

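The 10 mast cell genes were Kit, Gata2, Tpsb2, Mcpt4, Cma1, Cpa3, Fcer1a, Ms4a2, Mrgprb1 and Hdc. The genes were followed through 5 RNA-seq libraries labelled as visceral fat, from male mice of the inbred strain C57BL/6. They were chosen by name as genes known from mast cells, and all 10 were found among the 78334 gene identifiers of the count table and among the 24779 genes with enough counts to be tested. In the resveratrol group, 2 libraries came from mice that ate a diet drawing 60% of its calories from fat for 8 weeks and then received resveratrol, a polyphenol of grapes, through a gastric tube (2.25 mg/kg daily over 28 days). In the obesity group, 2 libraries came from mice on the same diet that received vehicle alone. The control group was 1 library of standard-chow tissue, also with vehicle, and therefore has no replicate. The diet began at an age of 8 weeks, treatment at 16 weeks, and tissue was collected after 12 weeks in all. Nothing in the labels states whether a pair of libraries means a pair of mice, and the p-values therefore measure library-to-library spread, which may be technical.

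Mast cells are tissue-resident leukocytes that leave the bone marrow as progenitors and mature in connective tissue, where stem cell factor signals to them through the receptor tyrosine kinase Kit. Their granules store histamine and serine and metalloproteases bound to proteoglycans, and these are released when the high-affinity IgE receptor is crosslinked or a Mas-related receptor binds cationic peptides. In the mouse, connective tissue mast cells are marked by the chymases Mcpt4 and Cma1, the tryptase Tpsb2 and carboxypeptidase A3. In adipose tissue mast cells lie along vessels and in fibrous septa, and their number has been studied in obesity.

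The start-site regions of the genes are shown first because Gata2, itself a member, encodes a factor that binds a GATA core. The 4 protease genes stood in the same order over the 5 libraries, while Fcer1a and Ms4a2 each departed from it within a pair. Gata2 itself had 569 counts in the control library, where Cpa3, Mcpt4, Fcer1a and Ms4a2 had 0. Its level was also lower in resveratrol library 2 than in obesity library 1. Whether Gata2 acts on these genes was not tested. Windows of 300 bases, 250 before and 50 after an annotated start, were taken from RefSeq on GRCm38.p6, where 9 of the 10 members matched in 11 windows. The letters GATAA, searched on both strands, are in capitals (TTATC where the match is on the other strand). The windows are Cpa3 at chr3:20242132-20242431, Cma1 at chr14:55944626-55944925, Mcpt4 at chr14:56062261-56062560, Fcer1a at chr1:173227180-173227479 and Ms4a2 at chr19:11623670-11623969, each on the minus strand of that build and printed 5′ to 3′ along the gene.
Cpa3: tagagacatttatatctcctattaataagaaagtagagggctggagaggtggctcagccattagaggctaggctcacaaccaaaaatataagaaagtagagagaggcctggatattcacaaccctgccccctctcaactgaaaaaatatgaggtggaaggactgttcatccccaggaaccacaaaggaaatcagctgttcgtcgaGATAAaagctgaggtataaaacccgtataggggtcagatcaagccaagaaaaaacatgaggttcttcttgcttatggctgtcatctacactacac
Cma1: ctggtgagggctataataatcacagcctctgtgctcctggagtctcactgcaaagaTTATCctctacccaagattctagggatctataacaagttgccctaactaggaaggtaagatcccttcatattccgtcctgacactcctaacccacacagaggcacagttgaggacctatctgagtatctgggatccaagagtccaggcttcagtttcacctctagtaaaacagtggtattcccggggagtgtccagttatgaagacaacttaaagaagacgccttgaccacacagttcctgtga
Mcpt4: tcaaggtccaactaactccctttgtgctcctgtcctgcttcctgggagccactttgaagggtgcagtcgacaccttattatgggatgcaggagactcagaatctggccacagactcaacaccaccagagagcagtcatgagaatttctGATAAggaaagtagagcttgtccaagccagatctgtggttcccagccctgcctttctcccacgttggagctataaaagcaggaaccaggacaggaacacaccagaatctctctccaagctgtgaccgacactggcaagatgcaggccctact
Fcer1a: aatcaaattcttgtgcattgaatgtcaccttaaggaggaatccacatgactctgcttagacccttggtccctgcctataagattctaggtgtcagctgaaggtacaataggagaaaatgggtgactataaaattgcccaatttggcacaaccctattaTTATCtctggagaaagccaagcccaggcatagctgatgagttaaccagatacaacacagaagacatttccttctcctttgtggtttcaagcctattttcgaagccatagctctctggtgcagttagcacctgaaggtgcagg
Ms4a2: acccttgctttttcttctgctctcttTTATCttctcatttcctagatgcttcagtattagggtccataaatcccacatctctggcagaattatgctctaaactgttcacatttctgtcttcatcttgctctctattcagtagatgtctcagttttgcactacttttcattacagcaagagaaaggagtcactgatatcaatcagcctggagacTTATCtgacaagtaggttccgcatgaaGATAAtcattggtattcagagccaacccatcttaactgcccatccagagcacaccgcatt

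GATAA was found in 6 of the members' 11 windows, 1 window in each of 6 genes, against 25.4% of all 32851 windows of that length. The match began 45 bases upstream of the start in Cpa3, 102 in Mcpt4, 194 in Cma1 and 92 in Fcer1a. Ms4a2 held 3 matches, beginning 224, 37 and 10 bases upstream. In Mrgprb1 the match lay 41 bases downstream of the start. The windows of Kit, Gata2 and Hdc held no GATAA. The letters CANNTG, the E-box core that the mast cell factor MITF can bind, were found in 8 of the members' 11 windows, against 72.3% of all windows, a share near the background. These matches describe the letters of the windows and no binding. The 25.4% background was not matched for base composition, and the 11 windows include overlapping windows of Kit. Whether the members hold GATAA more often than windows of like base composition was not tested.

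Total counts ranged from 19540961 to 27026597, and levels below are CPM, a gene's count relative to its library's TMM-scaled total. The control library and the first resveratrol library stood apart in tissue transcripts, which bears on every result. Summed over 8 adipocyte genes, the level was 5156 and 21867 CPM in resveratrol libraries 1 and 2, 20367 and 21725 CPM in the obesity libraries and 336 CPM in the control library. All 6 smooth muscle genes had reads in every library, with only 2 counts for Actg2 in obesity library 2. Their sum was 43965 and 361 CPM in the resveratrol pair, 576 and 319 CPM in the obesity pair and 2287 CPM in the control library. The 8 epididymis genes, all detected in the control library and all at a count of 0 in resveratrol library 2, summed to 3414 and 0 CPM in the resveratrol pair, 15.5 and 0.143 CPM in the obesity pair and 50781 CPM in the control library. In resveratrol library 1 nearly all of that sum was Crisp1, at 3397 CPM. Gpx5 had 4 counts there and Lcn8 had 0, against 28097 and 9451 CPM in the control library. In bulk tissue, fewer cells of a type and less RNA per cell cannot be told apart.

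The first question was whether resveratrol given on the high-fat diet went with a different level of mast cell transcripts. All 10 members had a higher mean with resveratrol than in obesity, with a median log2 difference of 1.84 over the members and of 0.05 over all genes tested; for Hdc this direction turned (-0.52) when resveratrol library 2 was left out. For 8 members, all but Gata2 and Hdc, both resveratrol libraries lay above both obesity libraries, a pattern found in 16.9% of all genes tested. By edgeR's quasi-likelihood test none of the 10 had an adjusted p under 0.05, 0% of all genes were called, and every member had an adjusted p of 0.899. At an unadjusted p under 0.05, 4 members stood higher, namely Kit, Cma1, Tpsb2 and Fcer1a, against 1.92% of all genes. Fcer1a and Ms4a2 reached the filter's minimum count only in resveratrol libraries, so a difference was a condition of their being tested. Over the other 8 members the median log2 difference was 1.73, 6 had groups that did not overlap and 3 had an unadjusted p under 0.05. DESeq2 called Kit (adjusted p = 0.0400) and no other member among the 7 that it gave an adjusted p, against 1.16% of its genes called higher, and limma-voom called 0 members.

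**Figure D1:**
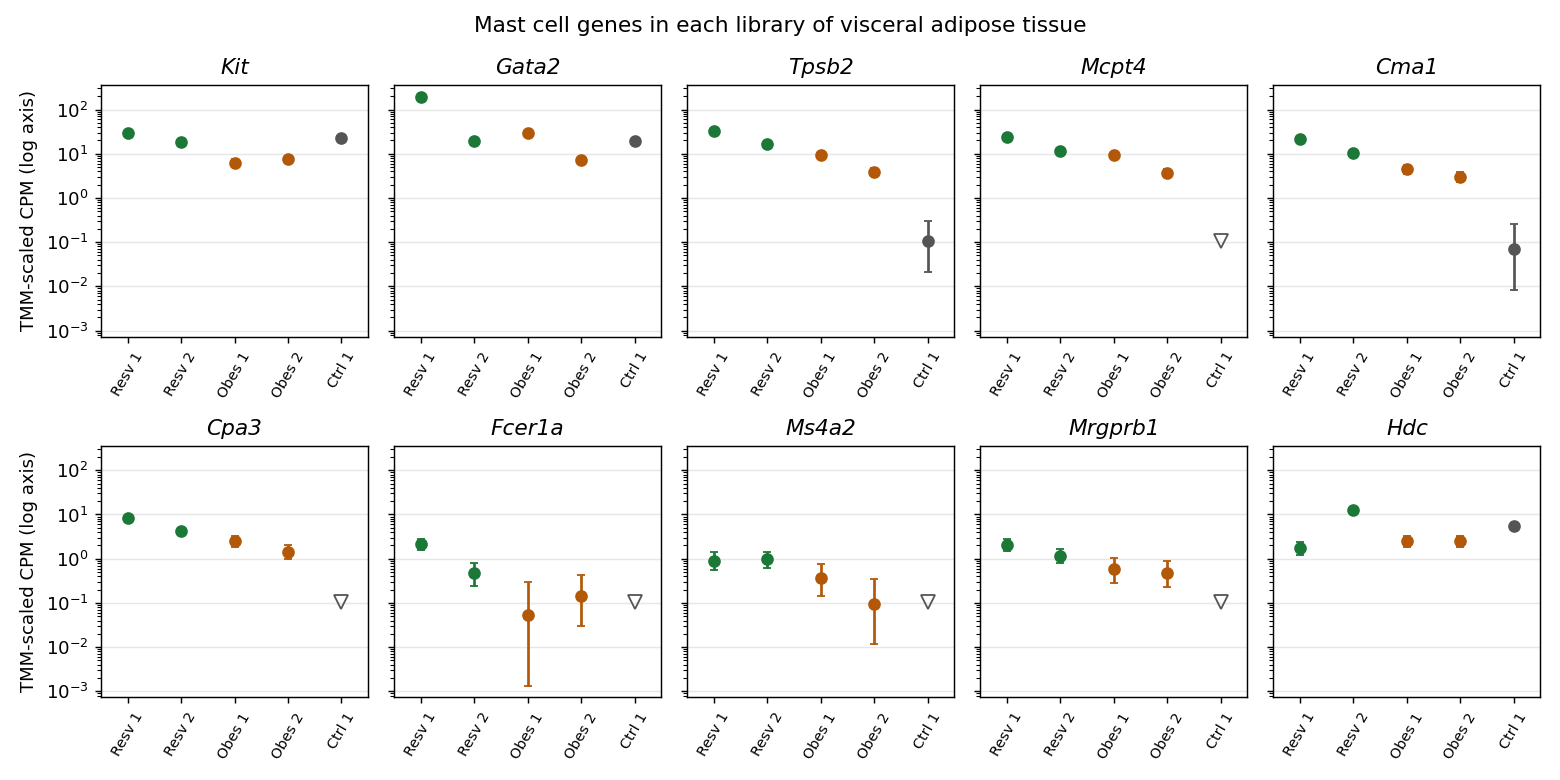
Level of each mast cell gene (TMM-scaled CPM, log axis) in the resveratrol (green), obesity (orange) and control (grey) libraries, with exact 95% counting intervals; open triangles stand at the level of 3 counts where the count was 0. Both resveratrol libraries lie above both obesity libraries for every gene but Gata2 and Hdc, and 5 genes have a count of 0 in control.

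Among the granule proteases, the tryptase gene Tpsb2 (ENSMUSG00000033825) measured 33.3 and 16.6 CPM in the resveratrol pair and 9.39 and 3.90 CPM in the obesity pair. Both resveratrol values were above both obesity values, although the second resveratrol library was nearer to the first obesity library than to its own partner. The log2 difference was 1.91 with a standard error (SE) of 0.65, adjusted p = 0.899 in the quasi-likelihood test. Mcpt4 (ENSMUSG00000061068), the main chymase of connective tissue mast cells in the mouse, measured 24.2 and 11.6 CPM in the resveratrol pair and 9.29 and 3.71 CPM in the obesity pair. Its groups came closest to touching, and its log2 difference of 1.46 (SE 0.68) was the smallest of the 10.

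Cma1 (ENSMUSG00000022225), which encodes a second chymase, measured 21.9 and 10.3 CPM in the resveratrol pair and 4.43 and 3.05 CPM in the obesity pair. Here the lower resveratrol library was clear of both obesity libraries, and the log2 difference was 2.10 (SE 0.57). Cpa3 (ENSMUSG00000001865), the carboxypeptidase stored beside the chymases, measured 8.50 and 4.12 CPM in the resveratrol pair and 2.50 and 1.43 CPM in the obesity pair, a log2 difference of 1.68 (SE 0.68). For all 4 proteases the first resveratrol library held about the same multiple of the second, from 2.00 for Tpsb2 to 2.12 for Cma1.

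The IgE receptor chains were scarce. Fcer1a (ENSMUSG00000005339), the chain that binds IgE, had 47 and 12 counts with resveratrol, against 1 and 3 counts in obesity, or 2.14 and 0.467 CPM against 0.0522 and 0.143 CPM. The ratio of the pooled levels was 12.4, with an exact 95% counting interval of 4.60 to 47.1 that takes no account of the spread between libraries. The fitted log2 difference of 3.65 (SE 1.27) rests on 4 obesity reads and was 2.20 without resveratrol library 1. Ms4a2 (ENSMUSG00000024680), the signal-amplifying beta chain, measured 0.909 and 0.972 CPM in the resveratrol pair and 0.365 and 0.0952 CPM in the obesity pair. Its level was nearly equal in both resveratrol libraries, on counts of 20 and 25.

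Mrgprb1 (ENSMUSG00000070547), a Mas-related receptor gene of mouse mast cells, measured 2.04 and 1.17 CPM in the resveratrol pair and 0.574 and 0.476 CPM in the obesity pair. The groups did not overlap, and the log2 difference was 1.60 (SE 0.74). Kit (ENSMUSG00000005672), the stem cell factor receptor, measured 29.4 and 18.2 CPM in the resveratrol pair and 6.26 and 7.66 CPM in the obesity pair. The means were 23.8 ± 7.97 CPM with resveratrol and 6.96 ± 0.993 CPM in obesity (SD, n = 2 each). Kit had the smallest SE of the 10, with a log2 difference of 1.77 (SE 0.38). In the list for Kit-positive interstitial cells, described below, all 3 genes tested also had a higher mean with resveratrol, and 0 passed. Ano1 among them was at 81.0 and 18.4 CPM in the resveratrol pair and 18.1 and 7.33 CPM in the obesity pair. The part of such cells in the Kit difference was not tested.

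Gata2 and Hdc did not share this pattern. Gata2 (ENSMUSG00000015053), a transcription factor that mast cells share with endothelium and blood progenitors, measured 192 and 19.6 CPM in the resveratrol pair and 30.1 and 7.33 CPM in the obesity pair. The second resveratrol library lay below the first obesity library, and the group mean rested on the first resveratrol library. Hdc (ENSMUSG00000027360), histidine decarboxylase, the enzyme that makes histamine, measured 1.73 and 12.4 CPM in the resveratrol pair and 2.50 and 2.48 CPM in the obesity pair. The first resveratrol library was the lowest of the 4 for Hdc, while it was the highest for Gata2.

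**Figure D2:**
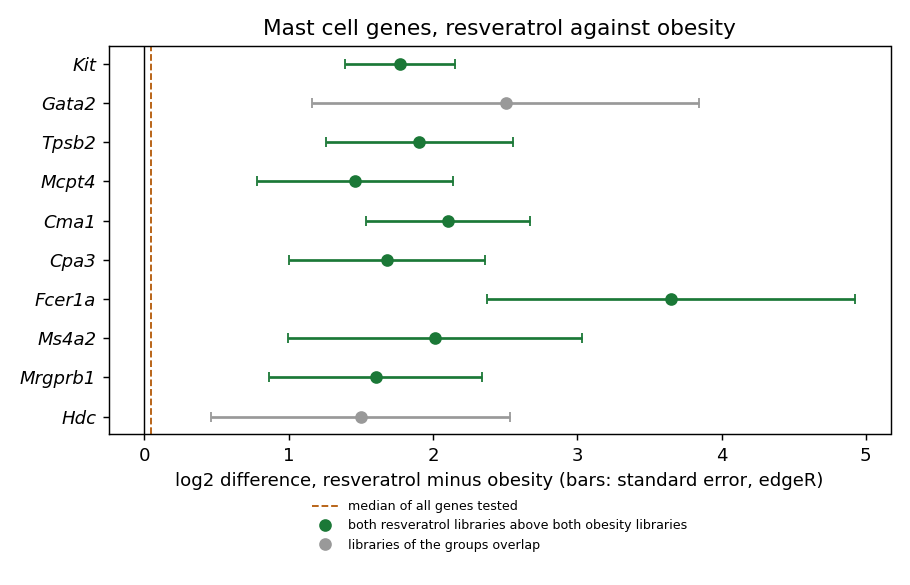
The log2 difference of each mast cell gene between the resveratrol and obesity groups (points, with edgeR standard errors as bars); green marks genes whose groups do not overlap and grey those that do. All 10 points lie right of 0, from 1.46 for Mcpt4 to 3.65 for Fcer1a, and the dashed line at 0.05 is the median of all genes tested.

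Single libraries decided whether members were called and set the size of some differences. Without resveratrol library 2, Kit (adjusted p = 0.00443), Cma1 (0.00699), Fcer1a (0.0388) and Cpa3 (0.0438) passed in edgeR's quasi-likelihood test, when 19.5% of all genes (4758) were called. That fit rested on resveratrol library 1 alone, the library rich in smooth muscle genes, and assumed that it varies like the obesity pair. Without resveratrol library 1, 0 members and 33 genes (0.136%) passed, and the median log2 difference over the members was 1.36. The protease differences then were 1.33 for Tpsb2, 0.85 for Mcpt4, 1.47 for Cma1 and 1.08 for Cpa3, all still higher in the remaining resveratrol library. That of Gata2 was 0.08, and that of Hdc was 2.32.

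Of the members, the 4 proteases, both IgE receptor chains and Mrgprb1 were also summed, a grouping made with their values known and given no test. They are largely restricted to mast cells, although basophils share several of the members. These 7 genes had 2046 and 1163 reads in the resveratrol libraries, against 510 and 269 in the obesity libraries and 5 in the control library. As levels this was 92.9 and 45.2 CPM in the resveratrol pair, 26.6 and 12.8 CPM in the obesity pair and 0.174 CPM in the control library. Every exact 95% counting interval was clear of its neighbour, such as 42.7 to 47.9 CPM in resveratrol library 2 and 24.3 to 29.0 CPM in obesity library 1. The ratio between the libraries within either group was larger than the ratio between those neighbours from different groups.

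Other leukocyte genes were set beside this sum. Ptprc, which encodes the pan-leukocyte antigen CD45, measured 12.9 and 101 CPM in the resveratrol pair, 91.2 and 105 CPM in the obesity pair and 3.87 CPM in control. The summed level of the 7 genes divided by that of Ptprc came to 7.23 and 0.449 with resveratrol, against 0.292 and 0.122 in obesity and 0.0450 in control. The list of 5 pan-leukocyte genes that holds Ptprc summed to 1310 and 885 CPM with resveratrol, to 870 and 939 CPM in obesity and to 952 CPM in the control library. Of this, Cd52, a leukocyte surface gene that the epididymis also expresses, made up 1167 and 47.3 CPM with resveratrol, 48.5 and 57.3 CPM in the obesity pair and 908 CPM in control. The list total was thus highest in resveratrol library 1, where Ptprc was the lowest of the 4 libraries on the high-fat diet. The 6 macrophage genes summed to 286 and 2140 CPM in the resveratrol pair and 1954 and 1806 CPM in the obesity pair, so the library with the most mast cell transcripts had the fewest macrophage transcripts of the 4. The 8 endothelial genes summed to 254 and 1471 CPM, against 796 and 660 CPM. The part of these differences in tissue makeup in the mast cell result was not tested.

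**Figure D3:**
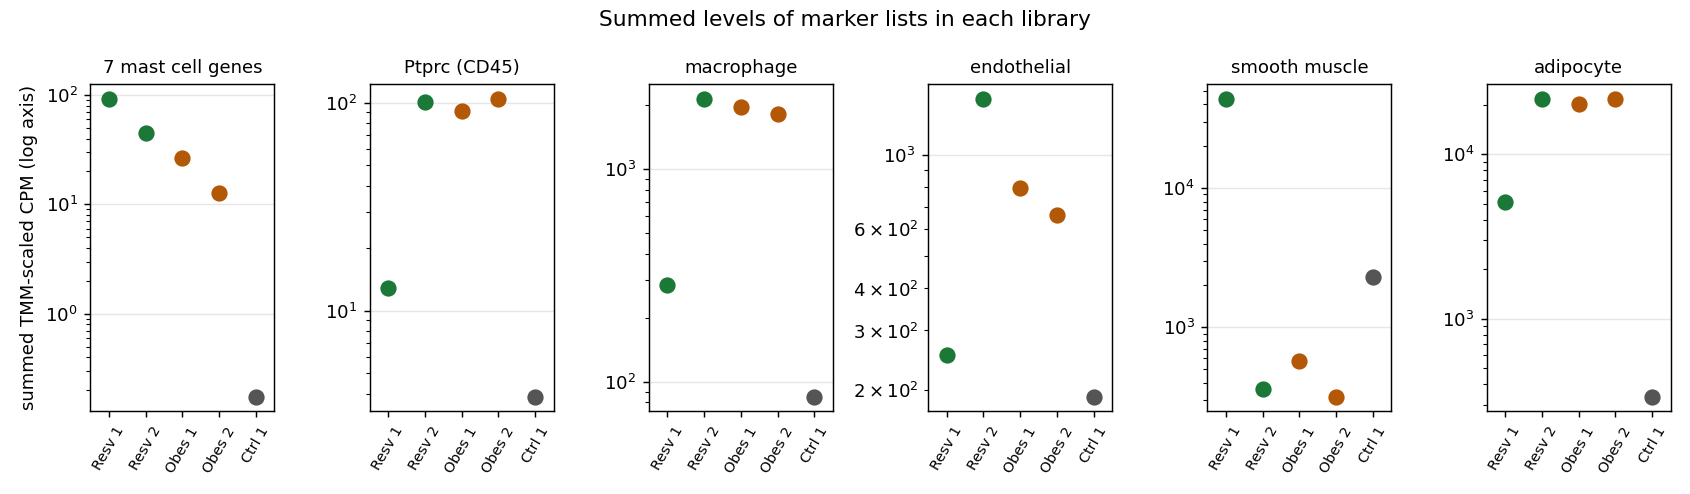
Summed level of 7 mast cell genes, of Ptprc alone, and of the macrophage, endothelial, smooth muscle and adipocyte lists in each library (TMM-scaled CPM on log axes that differ between panels). The mast cell sum is highest in resveratrol library 1 at 92.9 CPM, where Ptprc and the macrophage list are lower than in the other libraries on the high-fat diet and smooth muscle genes reach 43965 CPM.

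The members were also set against each other within a library. Per read of Mcpt4 there were 1.37 and 1.43 reads of Tpsb2 in the resveratrol libraries, against 1.01 and 1.05 in the obesity libraries. For Cma1 these ratios were 0.904 and 0.889, against 0.478 and 0.821, and obesity library 1 had an exact 95% counting interval of 0.364 to 0.622 that did not reach either resveratrol value. For Cpa3 they were 0.351 and 0.356, against 0.270 and 0.385, and all 4 counting intervals overlapped. Mrgprb1 lay between 0.0618 and 0.128 reads per Mcpt4 read in the 4 libraries. Kit spread more widely, at 1.22 and 1.57 with resveratrol, against 0.674 and 2.06 in obesity. Hdc ranged from 0.0713 reads in resveratrol library 1 to 1.07 in resveratrol library 2, and Gata2 from 1.69 in resveratrol library 2 to 7.94 in resveratrol library 1. These are ratios of reads, which also depend on transcript length, and not of transcript numbers.

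**Figure D4:**
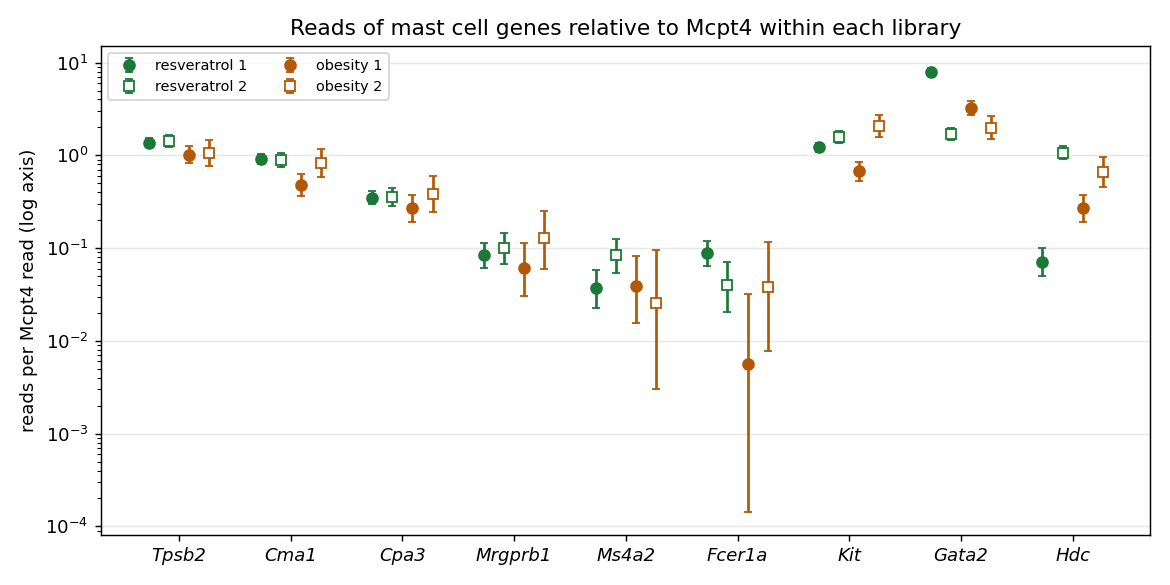
Reads of each mast cell gene per Mcpt4 read (log axis) in the resveratrol (green) and obesity (orange) libraries, circles for library 1 and squares for library 2, with exact 95% counting intervals. The ratios for Cpa3 lie from 0.270 to 0.385 and those for Hdc from 0.0713 to 1.07.

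The second question was how the obesity libraries compared with the standard-chow control library. That library held 50781 CPM of the epididymis genes and 336 CPM of the adipocyte genes. Its low mast cell levels therefore cannot be read as those of lean fat. The 7 summed members had a higher level in each obesity library than in control, a pattern found in 40.8% of all genes tested. Kit and Hdc stood lower. For Fcer1a, on 1 and 3 counts against 0, and for Ms4a2, on 7 and 2 counts against 0, this order is not detectable at this depth in every library. The median fitted log2 difference over the 10 members was 5.54, against -0.10 over all genes. It was 2.33 over 9 members with 4 of them set at multiples of a 3-count control floor, given below, and Fcer1a left out. By edgeR's quasi-likelihood test no member had an adjusted p under 0.05, with 0% of all genes called, and the smallest adjusted p among the members was 0.170, for Mcpt4. At an unadjusted p under 0.05, 5 members were higher, against 12.6% of all genes, and 1, Kit, was lower, against 11.7%. Those 5 higher members, with Fcer1a and Ms4a2, did not reach the filter's minimum count in the control library. A higher level elsewhere was thus a condition of their being tested, which the shares of all genes do not allow for. DESeq2 called 5 members higher (Cpa3, Cma1, Mcpt4, Tpsb2 and Mrgprb1), against 12.8% of its genes, and Kit lower, against 8.83%. When resveratrol library 1 or 2 was left out of the shared fit, edgeR's quasi-likelihood test called 6 members either time, those same 5 higher and Kit lower, with adjusted p up to 0.0401 (Mrgprb1). In those fits 37.9% and 37.3% of all genes were called.

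Cpa3, Mcpt4, Fcer1a, Ms4a2 and Mrgprb1 had no read in the control library (count 0), where 3 counts correspond to 0.105 CPM. The obesity mean was 62.1 times that floor for Mcpt4, 18.8 times for Cpa3, 5.02 times for Mrgprb1 and 2.20 times for Ms4a2. These multiples take the obesity mean as exact. In the same order, the lower ends of the exact 95% counting intervals for the ratio to control were smaller, at 49.2, 14.7, 3.72 and 1.41. No fold is given for Fcer1a, which was at or under the floor in the obesity libraries as well. Tpsb2 had 3 counts and Cma1 had 2 counts in the control library. The pooled obesity level was 62.3 times the control level for Tpsb2 (exact 95% counting interval 21.1 to 304) and 53.2 times for Cma1 (14.5 to 443). The adipocyte list was also far lower in this control library, as given above, so the diet and a difference in the tissue sampled cannot be told apart.

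Kit, Hdc and Gata2 were well detected in the control library although the 7 summed members were not. Kit was at 6.26 and 7.66 CPM in the obesity libraries, against 22.7 CPM in control (exact 95% interval 21.0 to 24.5). Its log2 difference was -1.70 (SE 0.44), with adjusted p = 0.182 in the quasi-likelihood test and 0.0266 in DESeq2. Hdc was at 2.50 and 2.48 CPM in obesity, below the 5.44 CPM of the control library, with a log2 difference of -1.13 (SE 1.20). Gata2 was at 30.1 and 7.33 CPM in obesity, on either side of 19.8 CPM in control. Ano1, a chloride channel gene that marks Kit-positive interstitial cells of gut muscle and is also found in epithelia, was at 18.1 and 7.33 CPM in obesity, against 104 CPM in control. Also on that list, Etv1 stood at 4.23 and 4.09 CPM in obesity, against 27.7 CPM in control. Thbs4 had the opposite order, with 4 and 9 counts in obesity and 0 in control. The part of other cell types in the Kit level of the control library was not tested.

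Resveratrol against the standard-chow control shares its libraries with both comparisons above. All 10 members had a higher mean with resveratrol, with a median fitted log2 difference of 7.78, against 0.05 over all genes. The median was 3.79 with 5 members set at their multiple of the control floor, given below. The difference was 0.07 for Kit, which turned (-0.30) without resveratrol library 1, and 0.37 for Hdc, which turned (-1.63) without resveratrol library 2. In both resveratrol libraries 7 members stood higher, against 37.7% of all genes tested. At an unadjusted p under 0.05, 7 members were higher, against 10.5% of all genes. In both counts these were the 7 summed members, which did not reach the filter's minimum count in the control library. A higher level elsewhere was thus a condition of their being tested, which the shares of all genes do not allow for. No member passed the adjusted threshold in edgeR's quasi-likelihood test, where 0% of genes were called and the smallest adjusted p among the members was 0.177, for Cma1. DESeq2 called 5 members higher (the 4 proteases and Mrgprb1), against 10.3% of its genes, and limma-voom called 0 members and 80 genes. edgeR called the same 5 without resveratrol library 1, when 30.7% of all genes were called, and these and Fcer1a without resveratrol library 2, when 17.2% were. Those fits set 1 resveratrol library against the 1 control library and took all their spread from the obesity pair. The resveratrol libraries differed more from each other over all genes than the obesity libraries did. These calls therefore cannot show whether the members differ beyond the spread within the resveratrol or control group. The mean with resveratrol, taken as exact, was 171 times the control floor for Mcpt4 and 60.3 times for Cpa3. It was 15.3 times for Mrgprb1, 12.4 times for Fcer1a and 8.99 times for Ms4a2. In the same order, the lower ends of the exact 95% counting intervals were smaller, at 135, 47.4, 11.9, 9.31 and 7.03. Kit, at 29.4 and 18.2 CPM with resveratrol, lay on either side of the 22.7 CPM of the control library, as did Hdc and Gata2.

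Other genes of mast cell granules and receptors were mixed. Of 14 further granule genes, 9 were tested in resveratrol against obesity, 4 of them higher and 5 lower, and 0 passed in edgeR's quasi-likelihood test, the test used for each further list. Tpsab1, the second tryptase gene beside Tpsb2, measured 1.45 and 1.24 CPM in the resveratrol pair and 0.417 and 0.190 CPM in the obesity pair, with a count of 0 in control. Mrgprb2, the mouse receptor for cationic secretagogues, measured 1.27 and 0.545 CPM in the resveratrol pair and 0.104 and 0.286 CPM in the obesity pair, again on few counts. Mcpt1 and Mcpt2, chymases of mucosal mast cells in the mouse, had a count of 0 in all 5 libraries. Slc18a2, the transporter that loads histamine into granules, measured 1.59 and 2.30 CPM in the resveratrol pair and 1.88 and 2.05 CPM in the obesity pair. Srgn, the granule proteoglycan core protein of many leukocytes, was at 21.0 and 75.8 CPM, against 59.5 and 54.0 CPM. Tpsb2 and Tpsab1, Cma1 and the other chymases, and Mrgprb1 and Mrgprb2 are close relatives, and how reads matching several genes were counted is not given in the sources used here.

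Genes of IgE receptor signalling, which other leukocytes share, had mixed levels. Of 15 tested, 12 had a lower mean and 3 a higher mean with resveratrol than in obesity, with a median log2 difference of -0.43, and 0 passed. In 5 of them both resveratrol libraries lay below both obesity libraries. The share of all genes with that lower order was not counted, so this number has no background to be read against. Fcer1g, the gamma chain that macrophages also use, measured 34.8 and 99.2 CPM in the resveratrol pair and 155 and 137 CPM in the obesity pair. Syk, the kinase recruited by that chain, was at 17.0 and 154 CPM, against 185 and 154 CPM. Among the libraries on the high-fat diet, both were lowest in resveratrol library 1, where Tpsb2 and Fcer1a were highest. Fcer1g was lower still in the control library, at 14.9 CPM.

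Of 16 genes for mast cell growth factors and receptors, 13 were tested between resveratrol and obesity, 4 higher and 9 lower, and 0 passed. Kitl, the gene for stem cell factor, measured 64.2 and 63.3 CPM in the resveratrol pair and 78.1 and 54.5 CPM in the obesity pair, so that the ligand overlapped between groups whose Kit levels did not. Mitf, a transcription factor needed for mast cell development, was at 14.1 and 24.8 CPM, against 36.5 and 32.6 CPM. Il33, the gene for an alarmin cytokine that activates mast cells, measured 13.2 and 7.55 CPM in the resveratrol pair, 1.20 and 1.24 CPM in the obesity pair and 22.5 CPM in control. Its log2 difference was 3.08 (SE 0.48), with adjusted p = 0.899 in the quasi-likelihood test and 0.000125 in DESeq2, and it was chosen after its values were seen. Il1rl1, which encodes the IL-33 receptor, measured 3.18 and 18.3 CPM in the resveratrol pair and 12.2 and 12.1 CPM in the obesity pair.

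The mediator pathways were mixed. In the histamine list 7 of 8 genes were tested, 4 higher and 3 lower with resveratrol than in obesity, and 0 passed. Hnmt, the methyltransferase that inactivates histamine in tissue, measured 23.3 and 22.3 CPM in the resveratrol pair and 17.4 and 17.5 CPM in the obesity pair. Of 8 lipid mediator genes 7 were tested, 3 higher and 4 lower, and 0 passed. Hpgds, the prostaglandin D2 synthase of mast cells and macrophages, stood at 7.81 and 28.0 CPM, against 56.4 and 40.0 CPM. Ptgs2, the inducible cyclooxygenase, measured 1500 and 7.04 CPM in the resveratrol pair, 0.783 and 0.476 CPM in the obesity pair and 4.60 CPM in control, with adjusted p = 0.899 in edgeR's quasi-likelihood test. DESeq2 called it, as it did Aoc1, a histamine-degrading oxidase gene, which measured 7.22 and 0.272 CPM in the resveratrol pair and had no read in the obesity pair. For both genes the first resveratrol library was far above the second, and the second was above both obesity libraries. Ptgs1, its constitutive relative, measured 221 and 39.2 CPM in the resveratrol pair and 32.8 and 12.5 CPM in the obesity pair.

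Basophils share several of the members, and the levels of their markers were low and mixed. Mcpt8, the defining basophil protease gene of the mouse, had a count of 0 in all 5 libraries, where 3 counts correspond to 0.105 to 0.157 CPM. Prss34, a protease gene of basophils and mast cells, had 26 and 11 counts with resveratrol, against 0 and 2 in obesity and 0 in control. Cd200r3, a receptor gene of both cell types, stood lower with resveratrol, at 0.318 and 0.583 CPM in the resveratrol pair and 1.98 and 0.809 CPM in the obesity pair. Il4, a cytokine gene of basophils and T cells, had 17 and 59 counts with resveratrol, against 26 and 22 in obesity and 49 in control. Gata1, a transcription factor gene of several blood lineages, had 5 and 2 counts with resveratrol and 0 in the other libraries. The 5 basophil genes matched summed to 2.50 and 3.38 CPM in the resveratrol pair, 3.34 and 1.95 CPM in the obesity pair and 1.71 CPM in control.

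Genes with the most similar profile over the 5 libraries were ranked by the root mean square difference of centred log2 levels from the members' median profile. Among 13823 genes with a mean of at least 1 CPM, the 5 nearest included Ltbp1 (0.27 on the log2 scale), Dbp (0.27), Islr (0.27) and Emilin1 (0.28). Ltbp1, a matrix protein that binds latent TGF-beta, measured 98.9 and 59.4 CPM in the resveratrol pair, 25.9 and 21.0 CPM in the obesity pair and 18.1 CPM in control. Emilin1, an elastic fibre glycoprotein gene, measured 123 and 70.8 CPM in the resveratrol pair, 34.4 and 32.8 CPM in the obesity pair and 24.2 CPM in control. On the same measure Mrgprb1 was at 0.33, Fcer1a at 0.41 and Ms4a2 at 0.47, while Mcpt4 and Tpsb2 were at 1.19 and Hdc at 1.43. Mrgprb1, Fcer1a and Ms4a2 had means under 1 CPM, where the 0.5 added before taking logs narrows differences. Set among the 13823 genes, Cpa3 would rank 388, Cma1 4085, Kit 4904, Mcpt4 8637 and Tpsb2 8659. The median profile is therefore not that of Mcpt4, Tpsb2 or Cma1. Ltbp1 and Emilin1 were not near-absent in the control library as those genes were. This likeness is a description over 5 libraries that differ in tissue makeup.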

How the data were processed

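Messenger RNA was sequenced as stranded poly-A libraries with paired reads of 150 bases, per the labels' protocols. The table that the authors deposited gives unnormalised read counts per Ensembl gene identifier, and the submitters' processing notes name featureCounts, FastQC and build GRCm39; no aligner, annotation release, strand setting or version was given in the sources used here. Symbols were matched for 65.7% of identifiers, and every listed symbol but Mcpt11 was matched. Tests used edgeR 4.0.16 under R 4.3.3. Low genes were removed with filterByExpr (minimum count 10, minimum total 15), TMM factors were applied, and all 3 comparisons were read from 1 robust quasi-likelihood fit with Benjamini-Hochberg adjustment over all genes at 0.05. This fit takes the single control library to have the spread of the replicated groups. SE is the absolute log2 difference divided by the square root of F. The counting intervals are exact Poisson or binomial 95% intervals, and they and the floor of 3 counts per library cover counting error only. DESeq2 1.42.0 and limma-voom (limma 3.58.1) were alternatives; adjusted p-values that DESeq2 left out stay missing. Likeness used log2(CPM + 0.5), and 1 of the 5 nearest genes is not reported here. Promoter windows came from RefSeq on GRCm38.p6, another build than that of the counts. Named genes were the members, Kitl, Tpsab1, Mrgprb2, Fcer1g, Mitf, Slc18a2 and Mcpt8. In each further list at most 3 with the highest mean CPM were also named. Il1rl1, Il33, Hpgds, Aoc1, Ptprc, Mcpt1, Mcpt2, Gata1, Siglecf and Crisp1 fall outside that rule, picked with their values in view. The members and lists were chosen with earlier results of these data known. Python 3.11.15 with matplotlib 3.10.9 made the figures.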

Additional observations from a re-analysis of the deposited data

How the results depend on the processing

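No member passed in any comparison in the edgeR fit of all 5 libraries, with median-ratio size factors or with limma-voom. DESeq2 called 1 member in resveratrol against obesity, 6 in obesity against control and 5 in resveratrol against control, of 224, 4529 and 3083 genes called. With no filter on low counts, 25 genes were called in resveratrol against obesity, 2575 (4 members) in obesity against control and 1671 (4 members) in resveratrol against control; limma-voom called 80 genes in the last. With only the groups compared, obesity against control called 9269 genes (5 members), with a median log2 difference of 5.79 over the 8 members then tested (not Fcer1a or Ms4a2). Leaving out each library in turn gave, for resveratrol against obesity, 0 to 4 members, 0 to 4758 genes and a median of 1.36 to 2.34; a fit without both the control library and resveratrol library 1, chosen after seeing the data, gave 66 genes and 1.33 over 9 members (not Fcer1a). Likewise obesity against control gave 0 to 6 members, 0 to 9227 genes and a median of 5.01 to 6.02, and resveratrol against control 0 to 6 members, 0 to 7469 genes and 7.20 to 8.23. The limma-voom medians were 4.29 in obesity against control and 6.15 in resveratrol against control. With the replicate block, 0 genes were called and these medians were 5.85 and 8.13; the numbers were not shown to pair the libraries (r = 0.30 between same-numbered deviations, from 2 pairs). Directions turned for Gata2 in obesity against control (0.95 with the replicate block; -1.41 to 0.60 leaving out libraries), for Hdc in resveratrol against control (-0.17 with limma-voom, -0.77 with the replicate block; -1.63 to 1.21 leaving out libraries) and in resveratrol against obesity (-0.52 to 2.32), and for Kit in resveratrol against control (-0.30 to 0.40). The causes were not tested. Each fit without a resveratrol or obesity library took its spread from the pair left whole, so its calls hold no spread within the reduced group. Counts of 0 to 11 limit Fcer1a, Ms4a2 and Mrgprb1 in the control and obesity libraries.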

Other observations

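Genes of eosinophils, another granular leukocyte, were looked at beside the mast cell genes, and these values were chosen after they were seen. Epx, the eosinophil peroxidase gene, had 99 counts in resveratrol library 1 and 0 in resveratrol library 2, in both obesity libraries and in the control library. Ear2, a ribonuclease gene of eosinophils and macrophages, had 71 and 1392 counts in the resveratrol libraries, against 947 and 753 in the obesity libraries and 0 in the control library. Siglecf, an eosinophil and alveolar macrophage receptor gene, had 3 and 23 counts with resveratrol, against 12 and 11 in obesity and 6 in control. The eosinophil list as a whole summed to 8.27 and 56.6 CPM in the resveratrol pair, 51.3 and 37.7 CPM in the obesity pair and 0.523 CPM in control.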
